A study of Mus musculus with 4 samples.

Results

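The genes of glycolysis and of the response to low oxygen described here are 32 of the 32285 genes in the expression matrices. They are a list of names: the rule uses no measured value, although earlier results of these data were known when the list was made. Every one of the 32 was found by its symbol. There are 17 glycolysis members, which take up glucose, convert it to pyruvate and handle pyruvate and lactate. The 15 hypoxia members hold the oxygen sensors and genes known to be induced when oxygen is low.

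The cells came from subcutaneous tumours of MC38, a mouse colon carcinoma line, taken 18 days after inoculation from female C57BL/6 mice of 12 to 16 weeks. The control group was Prdm1 f/f, in which both alleles of Prdm1 are flanked by loxP sites, and the knockout group was Prdm1 f/f CD19cre, in which Cre expressed in the B lineage removes the flanked part there. Tumours of 11 recipients per genotype were pooled, and the live cells sorted as B220+ and as CD138+ were mixed, in amounts that are not stated. Each genotype gave 1 droplet-based 5′ expression library, so no difference between genotypes has a replicate and no test was possible. All intervals below are at 95% and cover counting error only.

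Date stamps differ between the control and the knockout files, and whether the libraries were made on different days is not stated. Any effect of that kind and an effect of genotype cannot be told apart. Prdm1, which encodes the plasma cell factor Blimp-1, had 86 UMIs in the control library, 43 of them in plasma-like cells, and 53 UMIs in the knockout library, which held 0 plasma-like cells. In B-like cells it had 1 UMI in 228 control cells and 15 UMIs in 269 knockout cells. The exons that Cre removes are not given in the sources used here, so these counts do not check the labels, and the libraries are named by their labels.

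Glycolysis splits glucose into pyruvate and yields ATP without oxygen, and lactate dehydrogenase then turns pyruvate into lactate so that the pathway can keep running. When oxygen is scarce, the prolyl hydroxylases that mark the transcription factor subunit HIF-1alpha for destruction slow down. HIF then binds a short core sequence in promoters and enhancers and induces glucose transporters, glycolytic enzymes and genes for blood vessel growth, mitophagy and pH control, and activated lymphocytes and macrophages also raise glycolysis.

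The HIF core can be read in the promoters of several members. In RefSeq GRCm38.p6, windows from 250 bases before to 50 bases after a start site were given for 28 of the 32 members, Ero1l under its current symbol Ero1a. The letters ACGTG, on either strand, stood in 21 of these 28 (75%), against 5886 of 27025 genes with a window (21.8%). The share was 10 of 16 among glycolysis members and 11 of 12 among hypoxia members. The other core, GCGTG on either strand, stood in 19 of 28 (67.9%), against 35.2% of all genes. The palindrome CACGTG, which holds ACGTG on both strands and is also the E-box core, stood in 4 of 28 (14.3%), against 8.09% of all genes. The 150 bases before the start site are shown for 5 members picked because their stretch holds a match and because they stand at glucose uptake, the first ATP-yielding step, lactate formation, lactate export and mitophagy. Tpi1 is shown as a member whose stretch holds no match. Each is written 5′ to 3′ on the gene's strand, with ACGTG or its complement CACGT in capitals.
Slc2a1: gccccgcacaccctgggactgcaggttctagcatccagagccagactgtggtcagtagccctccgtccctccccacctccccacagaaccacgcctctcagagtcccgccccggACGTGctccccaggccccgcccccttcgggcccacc
Pgk1: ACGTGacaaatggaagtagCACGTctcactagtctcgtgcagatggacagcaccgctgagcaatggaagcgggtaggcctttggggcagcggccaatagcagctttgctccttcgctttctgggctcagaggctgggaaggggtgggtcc
Ldha: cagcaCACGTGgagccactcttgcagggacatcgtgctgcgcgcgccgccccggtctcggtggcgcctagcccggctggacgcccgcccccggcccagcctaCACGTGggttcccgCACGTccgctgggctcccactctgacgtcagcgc
Slc16a3: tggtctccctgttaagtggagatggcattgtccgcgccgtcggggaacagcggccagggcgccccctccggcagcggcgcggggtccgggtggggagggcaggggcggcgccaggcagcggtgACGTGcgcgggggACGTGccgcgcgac
Bnip3: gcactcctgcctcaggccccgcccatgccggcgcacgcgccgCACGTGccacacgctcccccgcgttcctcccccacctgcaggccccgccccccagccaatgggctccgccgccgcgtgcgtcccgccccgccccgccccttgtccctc
Tpi1: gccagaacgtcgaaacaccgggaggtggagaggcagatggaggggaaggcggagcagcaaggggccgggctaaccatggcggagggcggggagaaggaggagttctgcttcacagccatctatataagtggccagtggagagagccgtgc
These stretches lie at chr4:119108595-119108744 (Slc2a1, plus strand), chrX:106186950-106187099 (Pgk1, plus), chr7:46845654-46845803 (Ldha, plus), chr11:120948917-120949066 (Slc16a3, plus), chr7:138909507-138909656 (Bnip3, minus) and chr6:124814159-124814308 (Tpi1, minus). Slc2a1 had 1 match, 36 bases before the start, and the lactate exporter Slc16a3 had 2, at 27 and 14 bases. Pgk1, Bnip3 and Ldha had 2, 2 and 5 matches. In Bnip3 the matches, and in Ldha all but 1 of them, overlapped as CACGTG. Ldha had 2 windows, and ACGTG stood only in the 1 shown. A match of 5 letters is a description of the sequence and does not show that HIF binds there.

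Cells were clustered without the members, the other pathway genes listed for this work and immunoglobulin genes, and clusters were named from marker genes. Hypoxia-induced genes outside these lists were not left out. The control library held 800 cells after filtering, with a median of 5941 UMIs, and the knockout library 862, with a median of 4016, and 3 barcodes occurred in both. Of 17 clusters 13 were named and 4 were not. The classes used most were follicular-like B cells (183 control and 113 knockout cells), Fcrl5-led B-like cells (45 and 156), plasma-like cells (47 and 0), NK-like cells high in granzymes C, D and E (62 and 108), Gzma-led NK-like cells (68 and 96), Ifng-led NK-like cells (24 and 36), gamma delta T17-like cells (34 and 36), macrophage- or monocyte-like cells (87 and 39), plasmacytoid dendritic-like cells (37 and 38) and an unnamed cluster led by Mmp12, Gpnmb, Mt1 and Inhba (81 and 23), called the Gpnmb-led cluster below. Among the marker lists the neutrophil list scored highest for this cluster, ahead of the macrophage list, but markers of both were common in it and most neutrophil markers were rare, so it was left unnamed.

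Of the 12 neutrophil markers 5 were seen in at least 10% of the Gpnmb-led cells: Clec4d in 86.5%, Il1r2 in 24.0%, Csf3r in 13.5% and Trem1 and S100a8 in 12.5% each. The other neutrophil markers were rarer, among them S100a9 at 7.69%, Cxcr2 at 2.88%, Retnlg at 1.92% and Ly6g at 0.962%. Of the 9 macrophage markers 8 were seen in at least 10% of these cells, from C1qa at 19.2%, C1qc at 21.2% and Ms4a7 at 22.1% to Apoe at 56.7% and Fcgr1 at 67.3%, with Adgre1 at 7.69%. Of the 5 monocyte markers Plac8 was seen in 75%, Ly6c2 in 48.1%, Ccr2 in 30.8%, Vcan in 21.2% and Chil3 in 3.85%. In the macrophage- or monocyte-like class C1qa, C1qb and C1qc were seen in 15.1%, 24.6% and 21.4% of cells, so the class was not narrowed to macrophages. Median depth per cell differed by class and was 4956 UMIs in control and 4441 in knockout cells of this cluster, 8888 and 6991 in macrophage- or monocyte-like cells, and 2935 and 2475 in follicular-like B cells. Levels below are therefore counts per 1000000 UMIs of the class (CPM), and shares of cells are given after every cell was thinned to 1500 UMIs.

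The Gpnmb-led cluster had the highest level of most members in both libraries. Among 15 classes it was the highest for 27 of the 32 members in the control library and for 23 in the knockout library, and these 23 were highest there in both. The interval lay wholly above that of the next class for 23 members in control cells and 15 in knockout cells. Over all genes with at least 50 UMIs in a library, 7.27% and 6.40% had the Gpnmb-led cluster as their highest class. The share of all genes whose interval also lay above that of the next class was not computed. Hilpda, a hypoxia-induced gene outside the lists, was among the leading genes of this cluster. The cluster may thus have been formed in part by the response described here, and how far was not tested. The members that were highest elsewhere in both libraries were Slc2a3, Pfkp and Ddit4, led by basophil-like cells except for Slc2a3 in the knockout library, and Slc16a3 and Hif1a, led by macrophage- or monocyte-like cells.

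**Figure D1:**
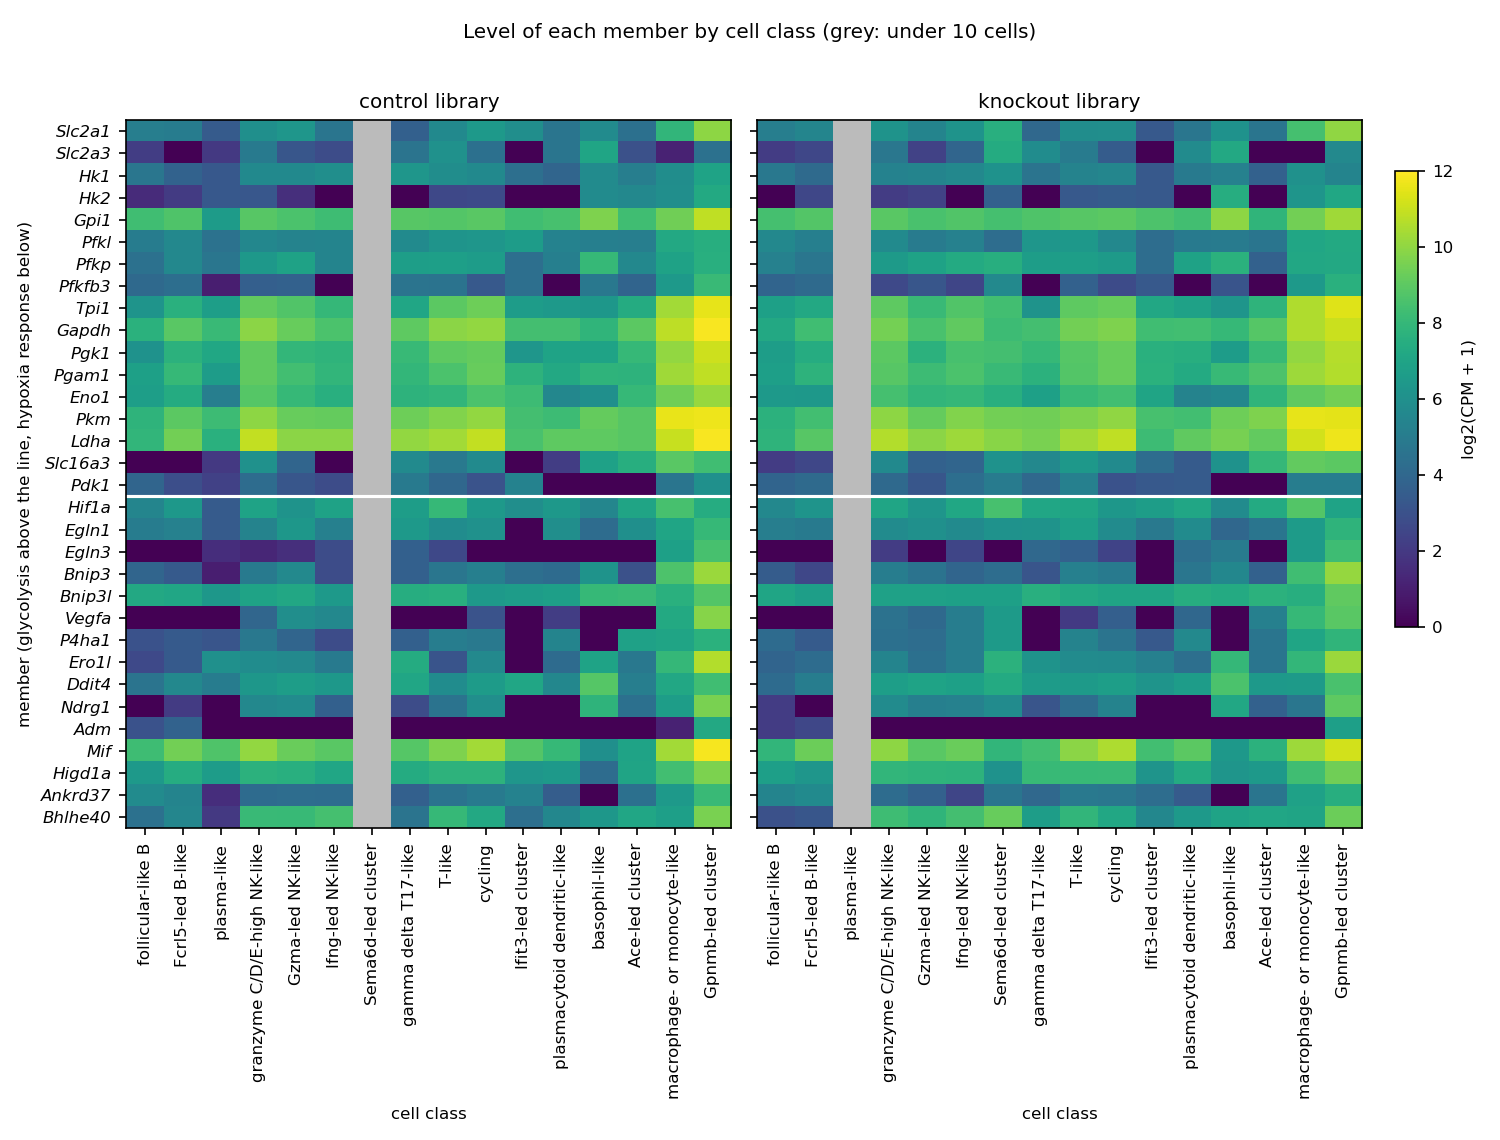
Level of each of the 32 members in 16 cell classes of the control and knockout libraries, as log2 of CPM plus 1, with grey where a library held under 10 cells of the class. The Gpnmb-led column is the brightest for 27 members in the control library and 23 in the knockout library, and Vegfa is at 0 in B-like cells of both libraries.

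Summed over the 17 glycolysis members, plasma-like and follicular-like B cells were lowest and the Gpnmb-led cluster and macrophage- or monocyte-like cells highest, with the other classes between them. The sum was 1329.8 CPM in plasma-like cells, 1485 in control and 1527 in knockout follicular-like B cells and 3089.8 and 2348 in Fcrl5-led B-like cells. T-like cells had 5634 and 5418, granzyme C, D and E-high NK-like cells 6812 and 5970.2, macrophage- or monocyte-like cells 13051 and 13316, and the Gpnmb-led cluster 23133 and 18479. Other myeloid cells were not high: basophil-like cells had 3377 and 3888, and the Ace-led cluster, an unnamed one with monocyte markers, had 3056 and 3524. Neighbours at the low end overlapped in their intervals, with 1259 to 1403 for plasma-like and 1385 to 1589 for control follicular-like B cells. The totals behind CPM and thinning include immunoglobulin UMIs, which lower the CPM of other genes where they are abundant. Class levels without them were not computed, so the low rank of plasma-like cells for any member is relative to all their RNA. Plasma-like cells held 1326 glycolysis UMIs in 47 cells, at a median depth of 20862, against 833 in 183 control follicular-like B cells.

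The 15 hypoxia members kept the same ends of the order. Their sum was 729 CPM in plasma-like cells, 749 and 678 in follicular-like B cells, 3801 and 3658 in macrophage- or monocyte-like cells and 11787 and 8975 in the Gpnmb-led cluster. The Gpnmb-led cluster exceeded the macrophage- or monocyte-like class 1.77-fold (1.72 to 1.82) in control and 1.39-fold (1.32 to 1.46) in knockout cells for glycolysis members. For hypoxia members the ratio was 3.10 (2.96 to 3.24) and 2.45 (2.25 to 2.68). These sums weigh the most abundant members most.

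**Figure D2:**
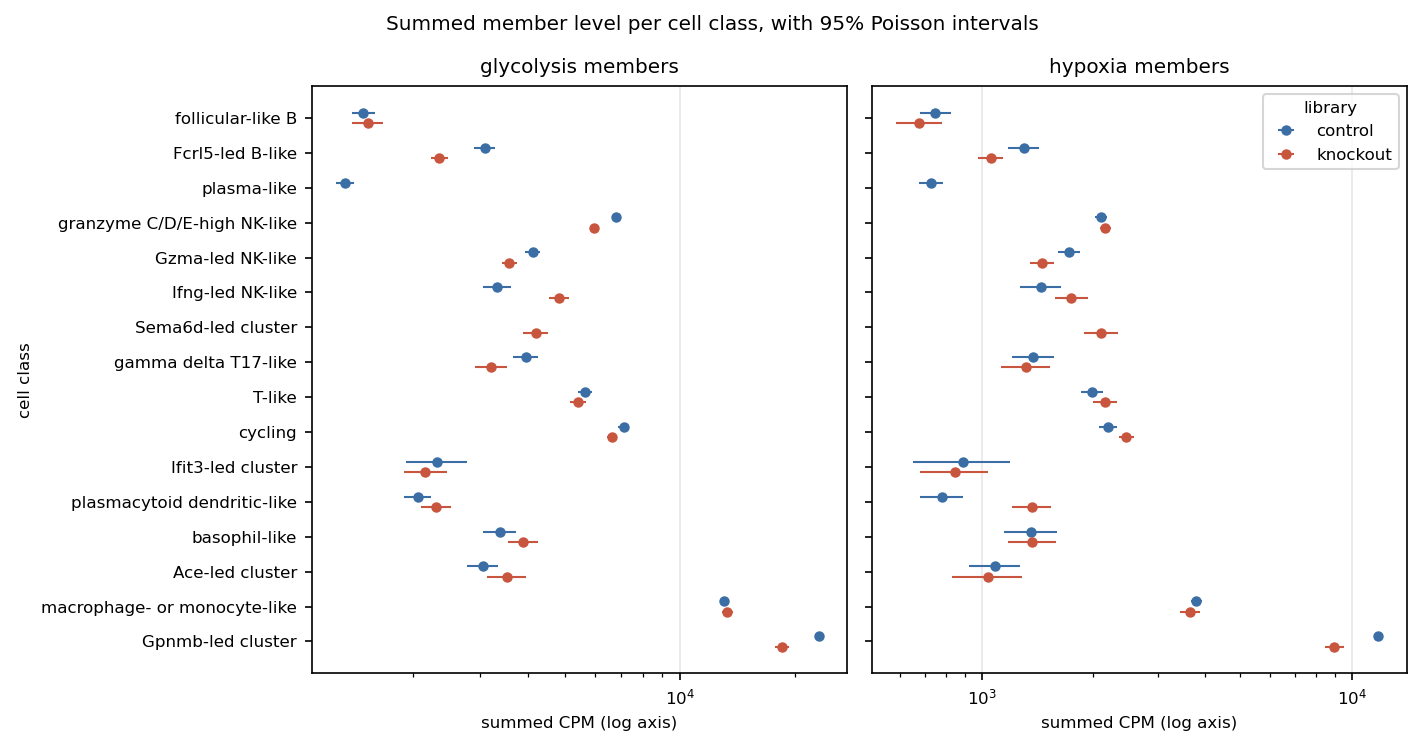
Summed CPM of the glycolysis members and of the hypoxia members per cell class on a log axis, control and knockout, with 95% Poisson intervals for counting error. The Gpnmb-led cluster is highest in both panels and both libraries, at 23133 and 18479 CPM for glycolysis and 11787 and 8975 CPM for hypoxia members.

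The difference between these 2 highest classes and B cells was present in most cells of each class. At 1500 UMIs per cell the median Gpnmb-led cell showed 9 of the 17 glycolysis members in both libraries and 7 of the 15 hypoxia members in control and 6 in knockout cells. The median macrophage- or monocyte-like cell showed 8 and 3 in both libraries, and the median follicular-like B cell 2 and 1. Hypoxia members varied widely among macrophage- or monocyte-like cells: the middle cells by rank, from the lower to the upper quartile, spanned 1602 to 5894 CPM in control and 2015 to 4732 in knockout cells, with 0 and 247 at the lowest and 14303 and 12620.0 at the highest.

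Glucose enters through Slc2a1 (GLUT1) or Slc2a3 (GLUT3), and the classes divided between them. Slc2a1 stood at 33.9 CPM in control and 34.2 in knockout follicular-like B cells, 63.0 and 64.0 in all NK-like cells, 11.8 and 15.8 in gamma delta T17-like cells, 24.4 and 24.9 in plasmacytoid dendritic-like cells, 238 and 351 in macrophage- or monocyte-like cells and 1011 and 1016 in the Gpnmb-led cluster. Basophil-like cells had 53.6 and 68.7 CPM and the Ace-led cluster 20.4 and 24.5, so Slc2a1 was not high in every myeloid class. The Sema6d-led cluster of the knockout library, in which NK cell markers were common, had 189.8. Slc2a3 was nearly absent from macrophage- or monocyte-like cells, with 1 UMI in control and 0 in knockout cells, against 193 and 96 UMIs of Slc2a1. It made up 0.515% (0.0130 to 2.84) of the pair's UMIs in control cells of that class, 2.05% (0.944 to 3.86) in the Gpnmb-led cluster, 25.9% (19.5 to 33.0) in NK-like cells, 56.5% (41.1 to 71.1) in T-like cells and 71.4% (47.8 to 88.7) in basophil-like cells. In the knockout library the shares were 0% (0 to 3.77), 4.65%, 23.9%, 34.5% and 69.0%, in the same order of classes.

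Hexokinase traps glucose in the cell as glucose 6-phosphate, with Hk1 the general form and Hk2 the inducible one. Hk2 was 55.6% (46.1 to 64.7) of Hk1 and Hk2 UMIs in the control Gpnmb-led cluster, 51.0% (40.6 to 61.4) in macrophage- or monocyte-like cells and 11.0% (6.00 to 18.1) in NK-like cells. The knockout shares were 77.3% (54.6 to 92.2), 53.8% (37.2 to 69.9) and 7.29% (2.98 to 14.4). Hk2 was thus a larger share of the pair in these 2 myeloid classes than in NK-like cells in both libraries, beyond counting error. In basophil-like cells the share was 50% (21.1 to 78.9) and 82.1% (63.1 to 93.9), on 12 and 28 UMIs.

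The middle steps begin with Gpi1, which turns glucose 6-phosphate into fructose 6-phosphate. It ranged in control cells from 95.3 CPM in plasma-like cells through 317 in follicular-like B cells to 678 in macrophage- or monocyte-like cells, 813 in basophil-like cells and 1824 in the Gpnmb-led cluster. Pfkl and Pfkp are the liver and platelet forms of phosphofructokinase, the committed step, and Pfkfb3 makes fructose 2,6-bisphosphate, which activates that step. Pfkp was 66.5% (60.6 to 72.1) and 69.7% (64.4 to 74.6) of the Pfkl and Pfkp UMIs in control and knockout NK-like cells and 44.5% (37.9 to 51.4) and 51.9% (40.3 to 63.5) in macrophage- or monocyte-like cells. Pfkfb3 was highest in the Gpnmb-led cluster, at 276 and 198 CPM, with 87.7 and 87.7 in macrophage- or monocyte-like cells and 10.7 and 5.94 in NK-like cells, and it had 0 UMIs in plasmacytoid dendritic-like cells of both libraries.

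**Figure D3:**
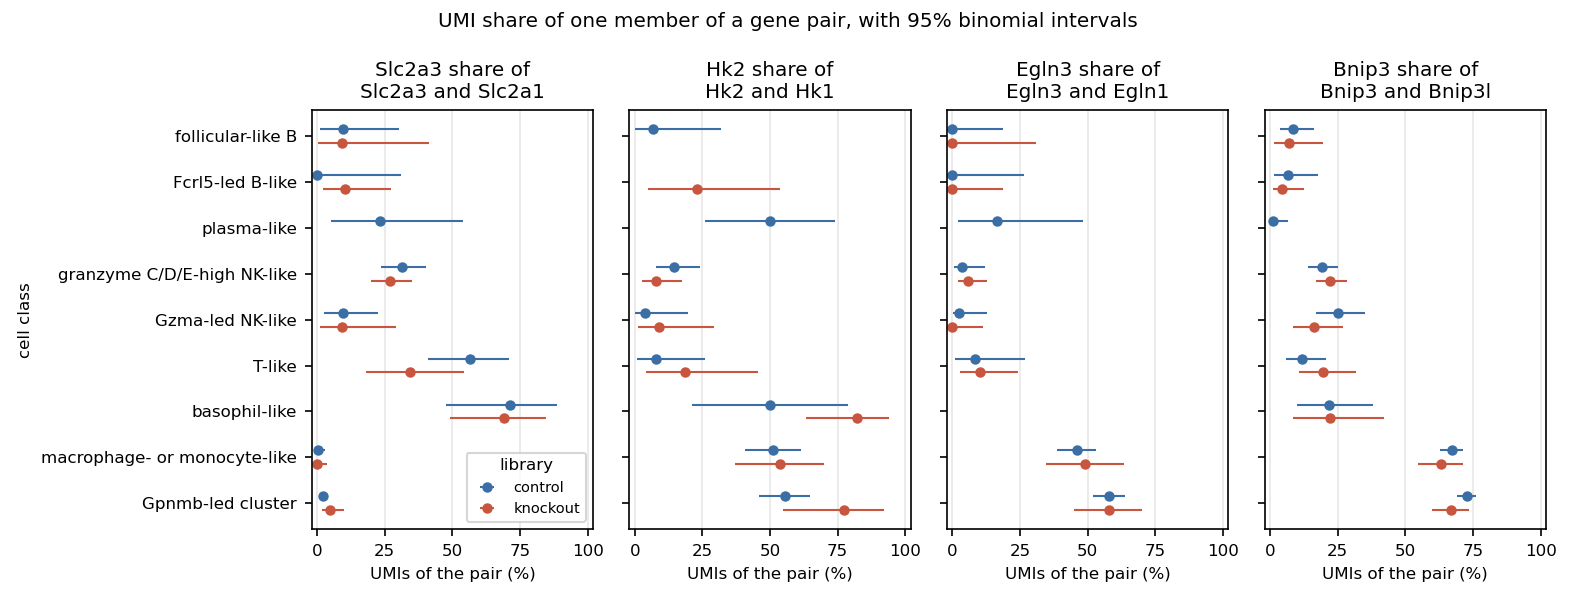
Share of a gene pair's UMIs, in percent, that came from Slc2a3, Hk2, Egln3 and Bnip3 (pairs with Slc2a1, Hk1, Egln1 and Bnip3l) per cell class in both libraries, with exact binomial 95% intervals. Bnip3 lies at 67.3% and 63.2% in macrophage- or monocyte-like cells and at 20.2% and 20% in NK-like cells, and Slc2a3 runs the other way.

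The lower, energy-yielding steps set follicular-like B cells, NK-like cells, macrophage- or monocyte-like cells and the Gpnmb-led cluster in that order. Tpi1, which balances the triose phosphates, had 73.1 CPM in control and 113 in knockout follicular-like B cells, 501 and 456 in NK-like cells, 1284 and 1524 in macrophage- or monocyte-like cells and 2986 and 2733 in the Gpnmb-led cluster. Gapdh, which oxidises glyceraldehyde 3-phosphate, had 203 and 151, 834 and 626, 1770.3 and 1509 and 3716 and 2097 in the same classes. Pgk1, the first ATP-yielding enzyme, had 69.5 and 103, 439 and 425, 1056 and 1049 and 2199 and 1602. All 3 stood in the same order of classes in both libraries.

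Pgam1 and Eno1 convert 3-phosphoglycerate to phosphoenolpyruvate. Pgam1 had 110.5 and 109.5 CPM in follicular-like B cells and 1231 and 1213 in macrophage- or monocyte-like cells, and Eno1 had 103 and 85.6 against 680.2 and 541. Pkm, pyruvate kinase, which makes pyruvate and ATP, was the member that least set the Gpnmb-led cluster apart from macrophage- or monocyte-like cells in the control library among the members that were highest there: 3334 against 3091 CPM, a ratio of 1.08 (1.01 to 1.15). In the knockout library the order was reversed, 2865 against 3015, with an interval that holds 1 (0.836 to 1.08). Gapdh, Eno1, Mif and other members have near-identical copies in the genome, and how reads shared with a copy were counted is not given in the sources used here. Eno1b, the copy of Eno1 with its own row, had 514 and 340 UMIs, so levels of these members are uncertain.

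Pyruvate is sent to lactate by Ldha, lactate leaves the cell through Slc16a3 (MCT4), and Pdk1 keeps pyruvate out of the mitochondrion by inhibiting pyruvate dehydrogenase. Ldha stood at 196 CPM in plasma-like cells, 235 and 223 in follicular-like B cells, 513 and 532 in plasmacytoid dendritic-like cells, 1066 and 776 in gamma delta T17-like cells, 1619 and 1396 in NK-like cells, 2025 and 2309.5 in macrophage- or monocyte-like cells and 3740 and 3361 in the Gpnmb-led cluster. NK-like cells were thus nearer to macrophage- or monocyte-like cells for Ldha than for Slc2a1. Slc16a3 had 494 and 559 CPM in macrophage- or monocyte-like cells, 320.5 and 504 in the Gpnmb-led cluster, 184 and 257 in the Ace-led cluster, 116 and 68.7 in basophil-like cells and 47.9 and 38.4 in NK-like cells. Control B-like cells had 0 UMIs of Slc16a3, which allows up to 3.43 CPM, and knockout B-like cells had 4.46 CPM. Pdk1 was low in every class, at most 63.6 CPM in the control Gpnmb-led cluster.

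The oxygen sensing members did not run together. Hif1a, the oxygen-regulated subunit of HIF, whose control lies mainly at the protein level, was highest in macrophage- or monocyte-like cells at 363 CPM in control and 435 in knockout cells, and lower in the Gpnmb-led cluster at 172 and 124, a ratio of the cluster to that class of 0.474 (0.362 to 0.614) and 0.285 (0.155 to 0.489). Hif1a was thus not highest in the class where most hypoxia members were, although the cluster exceeded follicular-like B cells 4.02-fold in control and 2.58-fold in knockout cells. Other levels of Hif1a were 42.8 and 47.9 in follicular-like B cells, 83.0 and 72.7 in Fcrl5-led B-like cells, 10.0 in plasma-like cells, 110.3 and 121 in NK-like cells and 83.7 and 134 in plasmacytoid dendritic-like cells. At 1500 UMIs, 41.4% of control and 35.9% of knockout macrophage- or monocyte-like cells held a Hif1a UMI, against 23.3% and 5.56% of Gpnmb-led cells.

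Egln1 and Egln3 are HIF prolyl hydroxylases, and Egln3 is itself a HIF target. Egln3 had 368 and 306 CPM in the Gpnmb-led cluster, 111 and 91.4 in macrophage- or monocyte-like cells and 1.95 and 2.74 in NK-like cells. It had 0 UMIs in B-like cells of both libraries, whereas Egln1 had 34.3 and 31.2 CPM there. Egln3 made up 58.0% (51.8 to 64.0) and 57.8% (44.8 to 70.1) of the pair in the Gpnmb-led cluster, 45.9% (38.8 to 53.2) and 49.0% (34.8 to 63.4) in macrophage- or monocyte-like cells and 3.77% (1.04 to 9.38) and 4.62% (1.71 to 9.78) in NK-like cells. The split between sensors was therefore alike in both libraries and far apart between these 2 myeloid classes and NK-like cells.

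Among the HIF targets, Bnip3 and Bnip3l are mitophagy receptors of the mitochondrial surface. Bnip3l was spread over all classes, from 80.2 CPM in plasma-like to 441 and 537 in Gpnmb-led cells. Bnip3 was restricted, with 1 UMI in plasma-like cells. It had 14.3 and 10.3 CPM in follicular-like B cells, 31.7 and 28.8 in NK-like cells, 399 and 314 in macrophage- or monocyte-like cells and 1169 and 1082 in the Gpnmb-led cluster. Its share of the pair was 72.6% (69.1 to 75.9) and 66.8% (59.8 to 73.4) in the Gpnmb-led cluster, 67.3% (62.9 to 71.5) and 63.2% (54.5 to 71.3) in macrophage- or monocyte-like cells, 20.2% (16.0 to 25.1) and 20% (15.7 to 24.8) in NK-like cells and 7.91% (4.02 to 13.7) and 5.50% (2.05 to 11.6) in B-like cells.

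Vegfa, the main blood vessel growth factor, had 907 and 479 CPM in the Gpnmb-led cluster, 156 and 263 in macrophage- or monocyte-like cells, 27.8 and 21.9 in NK-like cells and 0 UMIs in all B-like cells of both libraries and in plasma-like cells. At 1500 UMIs, 53.4% (41.4 to 65.2) and 44.4% (21.5 to 69.2) of Gpnmb-led cells held a Vegfa UMI, 20.7% (12.7 to 30.7) and 33.3% (19.1 to 50.2) of macrophage- or monocyte-like cells and 3.25% and 1.69% of NK-like cells. Of B-like cells, 0 of 224 and 0 of 259 did, with upper bounds of 1.63% and 1.41%, at median depths of 3061.5 and 2693 UMIs before thinning. This bounds the share of B-like cells that free RNA gave a UMI for Vegfa only, and not for more abundant genes. Markers of other cell types were seen in B-like cells: granzymes C to G at 6.86 CPM in control and 291 in knockout cells, and erythroid markers at 1.14 and 321. Ndrg1, a stress-induced gene, was held at 1500 UMIs by 42.5% (31.0 to 54.6) and 22.2% (6.41 to 47.6) of Gpnmb-led cells, 13.8% and 5.13% of macrophage- or monocyte-like cells, 22.6% and 11.9% of basophil-like cells and 0% of B-like cells. Ndrg1 thus marked basophil-like cells as well as the Gpnmb-led cluster, with 223 and 145 CPM against 778 and 512.

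Ero1l, an oxidase that forms disulfide bonds in the endoplasmic reticulum, had 1555 and 1181 CPM in the Gpnmb-led cluster, 256 and 245 in macrophage- or monocyte-like cells, 166 and 71.3 in gamma delta T17-like cells, 125 and 252 in basophil-like cells and 5.35 and 13.7 in follicular-like B cells. Plasma-like cells had 63.2, above B-like cells at 6.86 and 16.7. P4ha1, which hydroxylates collagen, had 200.3 and 231 CPM in the Gpnmb-led cluster, 126 and 132 in macrophage- or monocyte-like cells, and 22.5 and 21.5 in NK-like cells. Adm, which encodes the vessel-dilating peptide adrenomedullin, was highest in the Gpnmb-led cluster, with 151 and 107 CPM, and was held at 1500 UMIs by 5.48% and 16.7% of those cells. The next class, Fcrl5-led B-like cells, had 12.8 and 4.96 CPM.

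**Figure D4:**
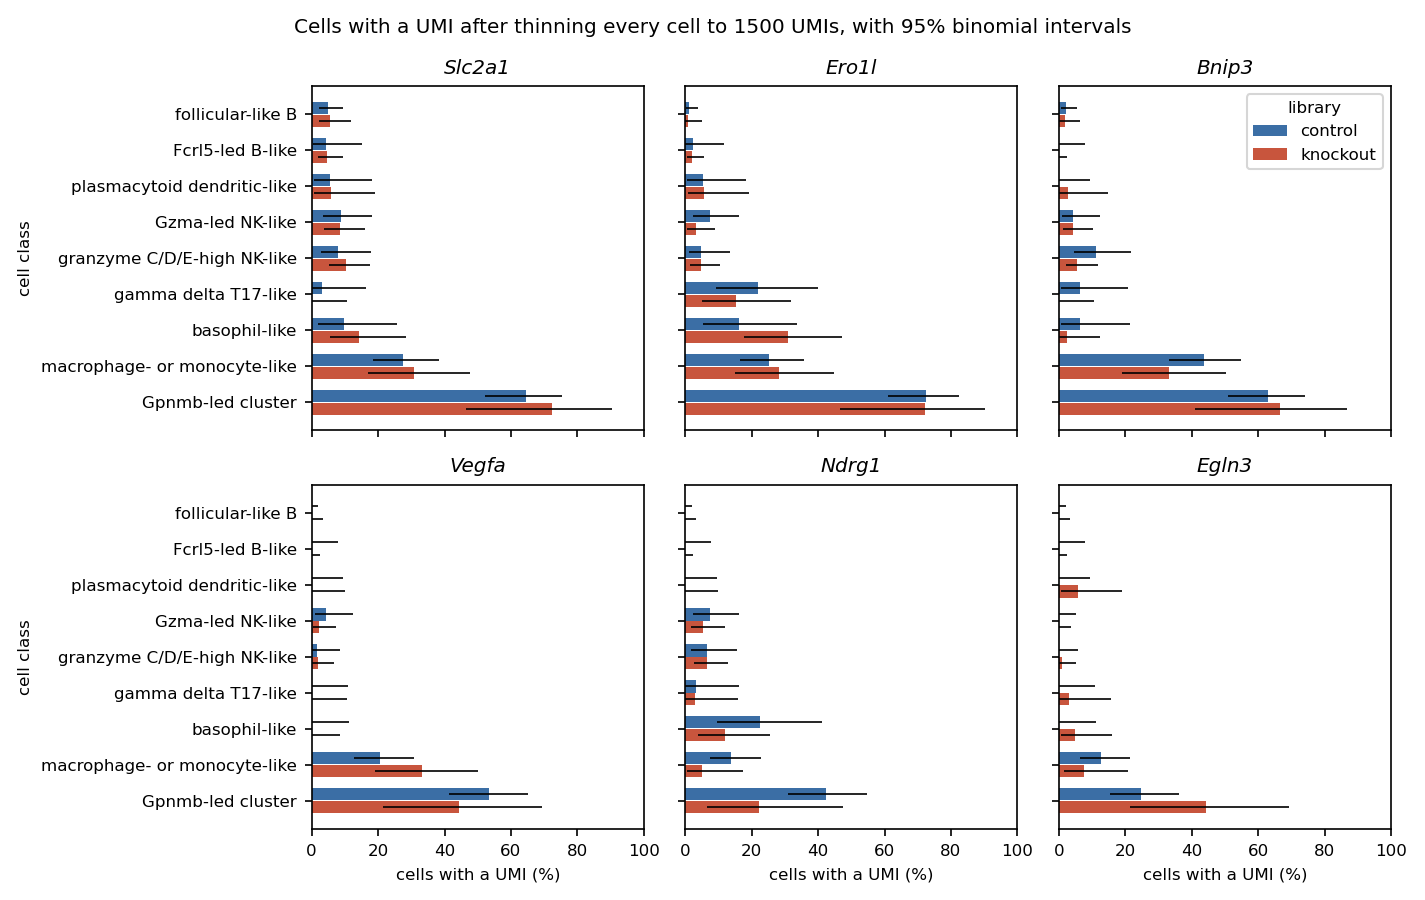
Share of cells, in percent, with at least 1 UMI of Slc2a1, Ero1l, Bnip3, Vegfa, Ndrg1 and Egln3 after thinning each cell to 1500 UMIs, in 9 cell classes and both libraries, with exact binomial 95% intervals. Gpnmb-led cells lie highest for the first 4 genes (Ero1l 72.6% and 72.2%), and B-like cells lie at 0% for Vegfa, Ndrg1 and Egln3.

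Ddit4, an inhibitor of mTORC1, was highest in basophil-like cells at 456 and 382 CPM, beside 316 and 372 in the Gpnmb-led cluster, 136 and 95.1 in gamma delta T17-like cells and 23.2 and 17.1 in follicular-like B cells. Bhlhe40, a transcription repressor also induced by activation of lymphocytes, was higher in NK-like cells, at 283 and 295 CPM, than in macrophage- or monocyte-like cells, at 109.9 and 128, and reached 775 and 628 in the Gpnmb-led cluster. The Sema6d-led cluster, with 57 cells in the knockout library and 6 in the control library, reached 600.1 CPM. Mif, a cytokine that is also a HIF target, and Higd1a, a mitochondrial protein, were seen in every class, with Mif at 305 and 239.6 CPM in follicular-like B cells and 3612 and 2337 in the Gpnmb-led cluster and Higd1a at 85.5 and 109.5 against 801 and 677. Ankrd37, a HIF target with ankyrin repeats, had 53.5 and 41.1 CPM in follicular-like B cells and 17.6 and 15.5 in NK-like cells, the reverse of the order of most members.

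Between genotypes, a member was called when it had at least 50 UMIs in the class over both libraries and its level differed more than 1.5-fold. In all B-like cells together 0 of 18 members passed this fold, where 12.0% of the 4136 genes tested did. The summed glycolysis members were 2059.7 CPM in control and 2081 in knockout B-like cells, a ratio of knockout to control of 1.01 (0.946 to 1.08), and the hypoxia members 945 and 934, a ratio of 0.989 (0.897 to 1.09). Eno1 had 126 and 84.7 CPM, a ratio of 0.673 (0.496 to 0.910). Gpi1 had 352 and 416, a ratio of 1.18 (1.01 to 1.38). The median log2 ratio was -0.03 over the members and -0.06 over all genes tested. Among B-like cells with a heavy-chain contig, 85 control and 257 knockout cells, both sums were lower in the knockout library: 2398 (2251 to 2552) and 2069 (1975 to 2167) CPM for glycolysis and 1125 (1025 to 1232) and 919 (857 to 985) for hypoxia members.

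The B-like class hid a difference in its makeup, since the Fcrl5-led cells, which had higher levels of glycolysis members, were 45 of 228 control and 156 of 269 knockout cells. In follicular-like B cells 1 of 11 members passed, where 11.1% of genes did. That member was Tpi1, at 73.1 and 113 CPM, and the interval of its ratio of 1.55 held 1 (0.947 to 2.51). The sums had ratios of 1.03 (0.915 to 1.16) and 0.905 (0.761 to 1.08), and the median log2 ratio was -0.08, beside -0.05 over all genes.

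In Fcrl5-led B-like cells 4 of 12 members passed, all lower in the knockout library, where 19.1% of genes passed and 10.4% were lower. The median log2 ratio was -0.38, beside -0.07 over all genes. Eno1 had 166 CPM in control and 84.3 in knockout cells, a ratio of 0.508 (0.338 to 0.762). Higd1a had 172 and 79.3, a ratio of 0.460 (0.305 to 0.692). Both stayed past 1.5-fold, at 0.468 and 0.503, without the cell of each library with the most member UMIs. Ldha had 699 and 466 CPM, a ratio of 0.667 (0.557 to 0.799), and Pkm 498 and 327, a ratio of 0.657 (0.530 to 0.816), and neither stayed past it, at 0.858 (0.687 to 1.08) and 0.708 (0.560 to 0.899).

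A single control cell of the Fcrl5-led class, with 38371 UMIs, held 418 of the 1374 control member UMIs (30.4%), and it also held 60 UMIs of cycling-cell markers. With the top cell of each library left out, the ratio of the summed glycolysis members moved from 0.760 (0.700 to 0.825) to 0.865 and that of the hypoxia members from 0.816 (0.719 to 0.926) to 0.983. Markers moved with the class: summed cycling-cell markers were 533 CPM in control and 340.4 in knockout cells, plasma cell markers 1159 and 1433, memory B cell markers 731 and 1373, and B cell markers 7341 and 9083. Granzymes C to G, which mark an NK-like subset, were 6.38 and 360.2 CPM and NK cell markers 16.0 and 66.1. The part of these in the result was not tested. At 1500 UMIs per cell 0 of 6 members tested passed the fold, where 19.9% of genes did. Plasma-like cells, present only in the control library, allow no comparison.

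In all NK-like cells 0 of 28 members passed the fold, where 6.95% of 6588 genes did. The summed glycolysis members had a ratio of 0.906 (0.883 to 0.929), which was 0.974 by the mean of each cell's CPM, and the hypoxia members 1.001 (0.959 to 1.05). Some member differences smaller than the fold exceeded counting error. Gapdh had 834 and 626 CPM, a ratio of 0.751 (0.699 to 0.806), and Ldha 1619 and 1396, a ratio of 0.862 (0.820 to 0.906). Eno1 had 383 and 319, a ratio of 0.831 (0.749 to 0.921), and Ero1l 52.3 and 36.6, a ratio of 0.700 (0.517 to 0.944). In the other direction lay Ddit4, at 85.5 and 111 CPM, a ratio of 1.29 (1.06 to 1.58), and Higd1a, at 197 and 229.9 CPM, a ratio of 1.17 (1.02 to 1.33). The NK-like subsets did not go the same way. The summed glycolysis members had a ratio of 0.876 (0.851 to 0.902) in the granzyme C, D and E-high subset, 0.869 (0.815 to 0.927) in the Gzma-led subset and 1.45 (1.31 to 1.62) in the Ifng-led subset, a difference that was not tested. Summed cycling-cell markers were 808 and 511 CPM in all NK-like cells, 946 and 579 in the granzyme C, D and E-high subset, 563 and 429 in the Gzma-led subset and 384 and 217 in the Ifng-led subset, and NK cell markers were 9352 and 11272 in all NK-like cells. Their part in these results was not tested.

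In the granzyme C, D and E-high subset 1 of 27 members passed, Vegfa, at 14.4 and 22.2 CPM, with a ratio whose interval held 1 (0.858 to 2.83), where 9.04% of genes passed. In the Gzma-led subset 3 of 17 passed, all lower in knockout cells, where 8.84% of genes passed and 4.44% were lower. They were Slc2a1, at 77.5 and 41.1 CPM, a ratio of 0.531 (0.292 to 0.935), Tpi1, at 432 and 279, a ratio of 0.647 (0.517 to 0.806), and Gapdh, at 583 and 374, a ratio of 0.641 (0.530 to 0.775). The interval of Slc2a1 held 1 without the top cells. The median log2 ratio was -0.16, beside 0.01 over all genes.

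In the Ifng-led subset 4 of 12 members passed, all higher in knockout cells, where 12.6% of genes passed and 6.28% were higher. Tpi1 had 252 and 425 CPM, a ratio of 1.69 (1.16 to 2.50). Pgk1 had 222 and 364, a ratio of 1.64 (1.09 to 2.50), and Pgam1 234 and 383, a ratio of 1.64 (1.10 to 2.46). These 3 enzymes of the triose and 3-carbon steps stayed past 1.5-fold without the top cells. The interval of the fourth, Higd1a, held 1. The subset held 24 and 36 cells, and 13.4% of the knockout member UMIs came from 1 cell.

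Gamma delta T17-like cells, which make interleukin 17, had summed glycolysis members at 3949 CPM in control and 3209 in knockout cells, a ratio of 0.812 (0.716 to 0.921), and hypoxia members at 1374 and 1315, a ratio of 0.957 (0.780 to 1.17). In cells of 2000 to 6000 UMIs the glycolysis ratio was 0.913, with an interval that held 1 (0.785 to 1.06). Cycling-cell markers were 438 and 254 CPM in this class, NK cell markers 35.5 and 198 and its own markers 4115 and 6385, and their part in the result was not tested. Of 10 members 3 passed the fold, where 11.6% of genes did: 2 lower, as were 6.27% of genes, and 1 higher, as were 5.28%. Gapdh had 515 and 341 CPM, a ratio of 0.661 (0.448 to 0.964). Eno1 had 213 and 111, a ratio of 0.520 (0.259 to 0.989), on 36 and 14 UMIs, and its interval held 1 without the top cells. Higd1a lay higher at 166 and 269 CPM, with an interval of the ratio that held 1 (0.956 to 2.78). In the other T-like cells 3 of 17 passed, where 14.4% of genes did: Hif1a at 260.2 and 132 CPM, a ratio of 0.506 (0.346 to 0.730), Egln1 at 56.1 and 107, a ratio of 1.91 (1.09 to 3.42), and Ddit4 with an interval that held 1. Without the top cells, 1 of which held 21.3% of the knockout member UMIs, Egln1 moved to 1.39 (0.742 to 2.63) and Hif1a stayed at 0.492.

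In macrophage- or monocyte-like cells the summed glycolysis members differed by less than counting error, at 13051 and 13316 CPM, a ratio of 1.02 (0.982 to 1.06), and the hypoxia members had a ratio of 0.962 (0.895 to 1.03). In cells of 2000 to 6000 UMIs, 17 control and 12 knockout, these were 0.896 (0.815 to 0.984) and 0.843 (0.717 to 0.990). Of 29 members 3 passed the fold, where 13.0% of genes did. Vegfa had 156 CPM in control and 263 in knockout cells, a ratio of 1.69 (1.25 to 2.28), and Slc2a1, short of the fold, 238 and 351, a ratio of 1.47 (1.14 to 1.89). Ndrg1 had 100.0 and 25.6, a ratio of 0.256 (0.0997 to 0.551) on 81 and 7 UMIs, and Ddit4 146 and 91.4, a ratio of 0.627 (0.390 to 0.972). Vegfa and Ndrg1, both HIF targets, thus differed in opposite directions in this class. Without the top cells Vegfa moved to 1.39 (0.994 to 1.91), and Ndrg1 and Ddit4 stayed past the fold at 0.256 and 0.528.

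Smaller differences in this class ran both ways. Tpi1 had a ratio of 1.19 (1.06 to 1.33) and Ldha of 1.14 (1.04 to 1.25), whereas Gapdh had 0.852 (0.762 to 0.952) and Eno1 0.795 (0.659 to 0.955). Summed macrophage markers were 5944 and 7155 CPM and monocyte markers 7672 and 8288, and B cell markers were 8.64 and 307 CPM. The part of these in the results was not tested.

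The Gpnmb-led cluster held the most members called. Of 30 members 8 passed the fold, 7 lower in knockout cells and 1 higher, where 30.6% of the genes tested in this class passed, 15.3% in each direction, so the share of members called was near that of all genes. The median log2 ratio was -0.29, beside -0.02 over all genes, and 25 of the 30 ratios were below 1. The summed glycolysis members had a ratio of 0.799 (0.763 to 0.836) and the hypoxia members 0.761 (0.712 to 0.813). In cells of 2000 to 6000 UMIs these were 0.983 (0.915 to 1.05) and 0.934 (0.846 to 1.03). Vegfa had 907 CPM in control and 479 in knockout cells, a ratio of 0.528 (0.393 to 0.697). Gapdh had 3716 and 2097, a ratio of 0.564 (0.492 to 0.645), and Mif 3612 and 2337, a ratio of 0.647 (0.568 to 0.735). Eno1 had 1131 and 702, a ratio of 0.621 (0.487 to 0.783), and Ndrg1 778 and 512, a ratio of 0.658 (0.494 to 0.866).

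Hk1 and the exporter Slc16a3 were also called in this cluster, in opposite directions. Hk1 had 123 and 41.3 CPM, a ratio of 0.337 (0.105 to 0.838) on 52 and 5 UMIs, and Slc16a3 had 320.5 and 504, a ratio of 1.57 (1.14 to 2.14), the only member called higher. Slc2a1 had 1011 and 1016 CPM, a ratio of 1.005 (0.815 to 1.23), and Bnip3 1169 and 1082, a ratio of 0.925 (0.757 to 1.12). Gapdh, Eno1 and Vegfa stayed past the fold with intervals below 1 without the top cells, at 0.609, 0.491 and 0.646. Ndrg1 moved to 0.971 (0.720 to 1.29), Slc16a3 to 1.33 (0.899 to 1.92), Mif to 0.691 (0.603 to 0.790) and Hk1 to 0.510 (0.157 to 1.29).

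The knockout side of this cluster held 23 cells, and 1 of them held 19896 UMIs, 16.4% of the UMIs of the class, and 12.0% of its member UMIs. Summed macrophage markers were 4670.3 CPM in control and 12459.7 in knockout cells, with 8 and 9 of 9 markers in at least 10% of cells. Neutrophil markers were 2788 and 4484, with 5 and 7 of 12, NK cell markers 7.07 and 462, and granzymes C to G 2.36 and 2023. Their part in the differences was not tested.

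**Figure D5:**
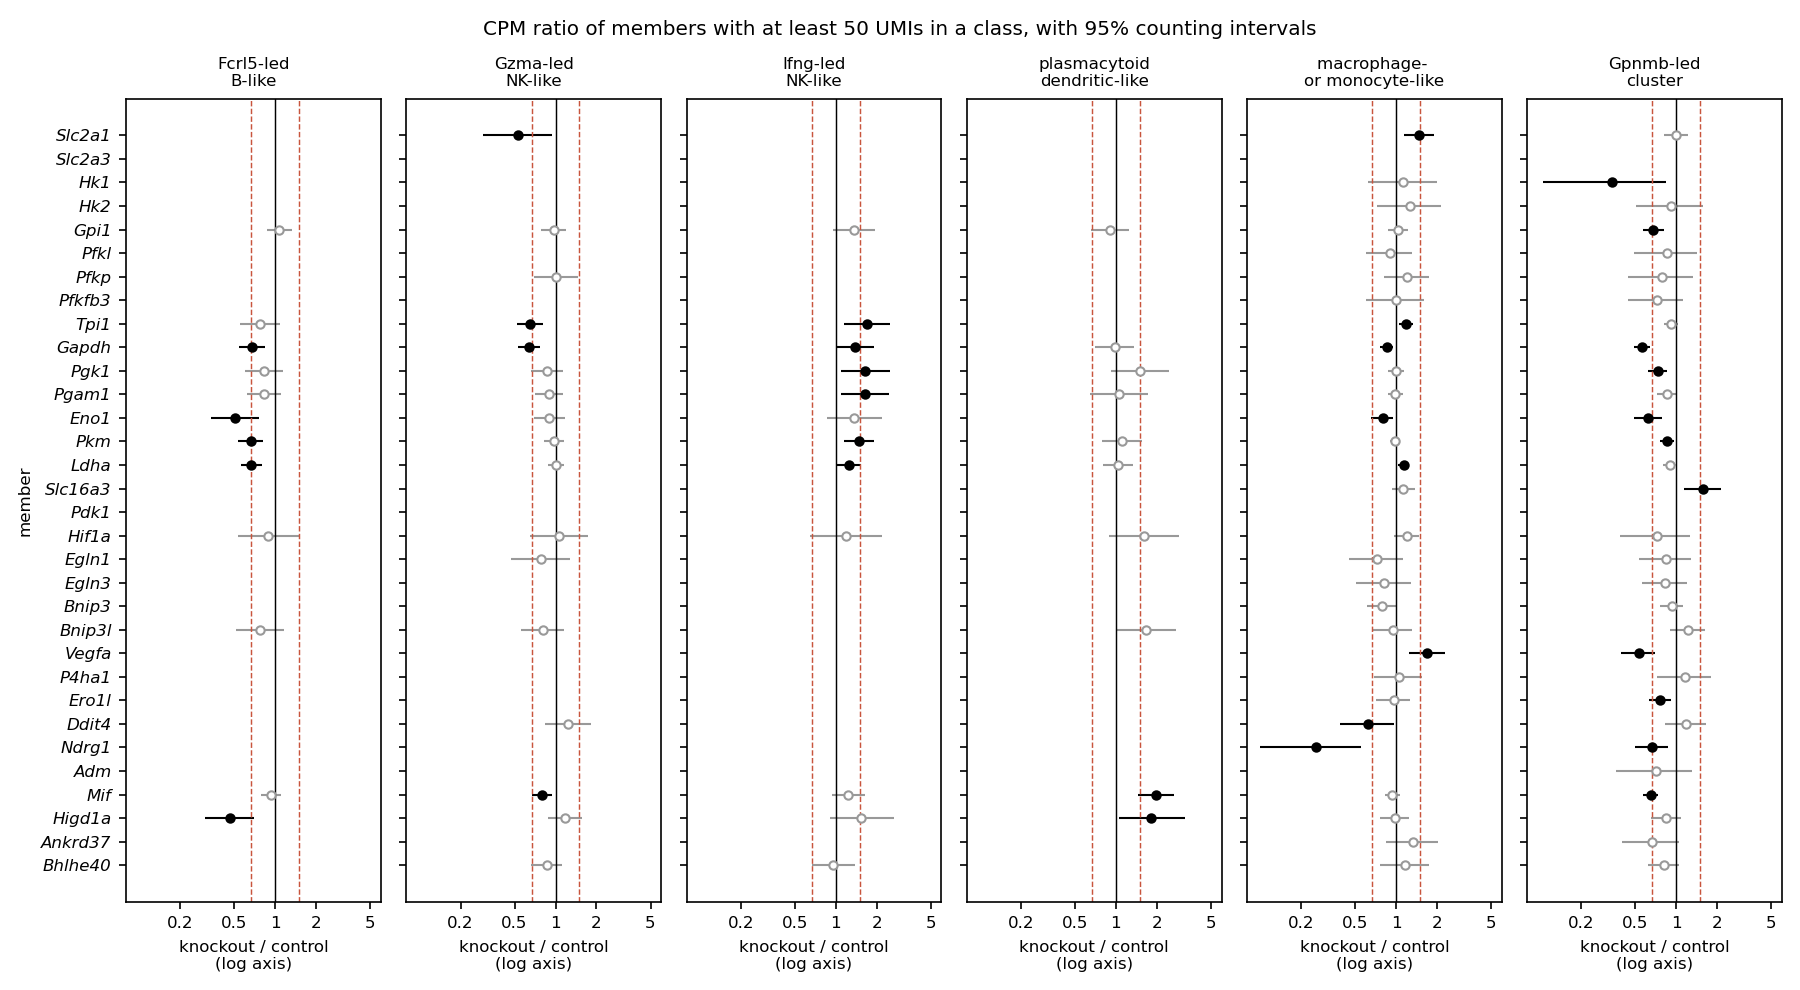
Ratio of knockout to control CPM on a log axis for each member with at least 50 UMIs in 6 cell classes, with exact conditional binomial 95% intervals, filled where the interval leaves out 1, and dashed lines at 1.5-fold. Members lie mostly left of 1 in the Gpnmb-led cluster (25 of 30) and the Fcrl5-led class (11 of 12) and right of 1 in the Ifng-led class (11 of 12).

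Plasmacytoid dendritic-like cells, which sense viral nucleic acids, had low levels of the members in both libraries and a higher hypoxia sum in the knockout library, 778 against 1363 CPM, a ratio of 1.75 (1.46 to 2.10). The glycolysis sum was 2059 and 2303, a ratio of 1.12 (0.989 to 1.27). Of 10 members 5 passed the fold, all higher in knockout cells, where 10.4% of genes passed and 4.92% were higher. Mif had 258 and 507 CPM, a ratio of 1.97 (1.44 to 2.69), and Higd1a 87.2 and 159, a ratio of 1.82 (1.05 to 3.21). The intervals of Pgk1, Hif1a and Bnip3l held 1.

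This difference rested in part on 1 knockout cell of 13097 UMIs, which held 71 of the 274 hypoxia UMIs and also 28 UMIs of T cell markers. With the top cells left out the hypoxia ratio was 1.44 (1.18 to 1.76), Mif moved to 1.37 (0.965 to 1.95) and Higd1a to just under 1.5 (0.816 to 2.76). Then 2 of 8 members passed the fold, where 9.46% of genes did. At 1500 UMIs per cell the ratio was 1.13 (0.772 to 1.67). Only 1 member had enough UMIs to be tested at that depth, and it did not pass, where 11.2% of genes did. Cycling-cell markers in the class were 219.8 and 363 CPM, and their part in the result was not tested.

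Of the remaining classes, 2 of 8 members passed in the Ace-led cluster, where 18.3% of genes did, both higher in knockout cells, as were 10.7% of genes: Pgam1 at 218 and 404 CPM, a ratio of 1.85 (1.10 to 3.11), and Pkm at 469.7 and 832, a ratio of 1.77 (1.25 to 2.51). In cycling cells 2 of 22 passed, where 16.3% of genes did, with Pfkl at 79.1 and 47.9 CPM, a ratio of 0.605 (0.372 to 0.974), and Slc2a1 with an interval that held 1. Without the top cells the interval of Pfkl held 1 as well (0.368 to 1.06). Basophil-like cells had 1 of 8, Bnip3l, with an interval that held 1, where 11.5% of genes passed, and the Ifit3-led cluster 0 of 5, where 25.8% did. Over 10 classes 29 pairs of a member and a class, from 18 members, were past 1.5-fold with an interval that left out 1, of 218 pairs tested in 14 classes (13.3%), where 8.91% of the pairs over all genes were, and 15 of the 29 were so without the top cells.

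Seen by gene, Gapdh was the member with the most uniform direction among those tested in every class. Its ratio was below 1 in 12 of 14 classes, the interval lay below 1 in 8 of them, and the median ratio was 0.763, with 1.39 in the Ifng-led subset as the highest. Eno1 was below 1 in 9 of 11 classes, with a median of 0.828. Ldha was below 1 in 7 of 14 classes and Pkm in 8 of 14, and Higd1a was above 1 in 8 of 11. The classes share the same pair of libraries, so these are not independent observations, and such counts were not made over all genes. Levels of Gapdh and Eno1 are also uncertain because of their near-identical copies.

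The other genes listed for these pathways were set beside the members. Of the tricarboxylic acid cycle and oxidative phosphorylation genes, which burn pyruvate in the mitochondrion, 0 of 26 passed the fold in NK-like cells and 0 of 26 in B-like cells, where 6.95% and 12.0% of all genes did, with summed levels of 10008 and 9332 CPM and 7081 and 6801. In the Gpnmb-led cluster 5 of 13 passed, all higher in knockout cells, where 30.6% of all genes passed and 15.3% were higher. They were Mdh2, Ndufa4, Ndufb8, Cox5a and Atp5a1, with ratios of 2.07, 2.07, 1.84, 1.64 and 1.67. The median log2 ratio of the list was 0.40, beside -0.02 over all genes. None of these values was recomputed without the top cells, and the top knockout cell held 16.4% of the knockout UMIs of this cluster.

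Among the other hypoxia response genes, Hmox1, which degrades haem, was lower in knockout cells of both highest classes. It had 2936 CPM in control and 519 in knockout macrophage- or monocyte-like cells, a ratio of 0.177 (0.148 to 0.209), and 4857 and 1957 in the Gpnmb-led cluster, a ratio of 0.403. Arg1, arginase, had 1159 and 413 CPM in the Gpnmb-led cluster, a ratio of 0.356. In the macrophage- or monocyte-like class 2 of 11 genes of this list passed, both lower, where 13.0% of all genes passed and 7.37% were lower. In the Gpnmb-led cluster 3 of 9 passed, all lower, where 30.6% of all genes passed and 15.3% were lower. In plasmacytoid dendritic-like cells Cited2, a HIF-induced inhibitor of HIF, had 52.3 and 174 CPM, a ratio of 3.33 (1.77 to 6.56). The ratios of Hmox1, Arg1 and Cited2 were not recomputed without the top cells. Of the knockout UMIs, 1 such cell held 16.4% in the Gpnmb-led cluster and 1 held 6.52% in plasmacytoid dendritic-like cells.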

How the data were processed

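The members and the gene lists were chosen with earlier results of these data known. Expression was measured in 1 pooled library per genotype. The deposited expression tables are matrices of UMI counts, 1 row per gene, per the file headers. The submitters' processing notes name Cell Ranger 6.0.0 and the build GRCm38 (mm10), and counts per V(D)J contig were deposited for the same samples and used only to find barcodes with 2 heavy chains and B cells with a heavy chain. Barcodes with under 200 genes, over 10% mitochondrial UMIs, a Scrublet doublet call (5 control and 6 knockout) or 2 heavy chains (0 and 6) were left out, which kept 800 of 816 and 862 of 897. Library totals were 6976374 and 5463434 UMIs.

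Clusters were made with Scanpy 1.11.5 and leidenalg 0.10.2 on 2000 variable genes, 30 principal components and 15 neighbours at resolution 1, leaving out immunoglobulin genes, the members and the other listed pathway genes. They were named from 20 marker lists by mean level and detected markers, by a rule set after the clusters were seen. UMIs were summed per class and library and scaled to counts per 1000000 (CPM). Levels have exact Poisson intervals, ratios exact conditional binomial intervals and shares exact Clopper-Pearson binomial intervals, all at 95% and for counting error only, computed with SciPy 1.17.1. The ratio and fold calls were tried on simulated Poisson counts of the follicular-like and Fcrl5-led B-like classes only. These counts hold no variation between cells, so they do not show how the intervals behave in the real classes. For a count of 0 the limit is 3 counts. Values are given by the rule that a member is named in a class where it had at least 50 UMIs, with its values where its ratio was past 1.5 with an interval off 1, and in the B, NK and macrophage classes. From the other lists, genes past 1.5-fold with an interval off 1 were named. Aldoa has 2 rows and was not used. Promoter sequences are RefSeq's, and windows for Slc2a3, Bnip3l, Ndrg1 and Bhlhe40 were not used here.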

Additional observations from a re-analysis of the deposited data

Results flagged for a closer look

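For 5 members the ratio of knockout to control was past 1.5-fold in opposite directions in 2 cell classes, with intervals that left out 1 in both. The share of all genes that did so was not computed, so the count is not a trait of the members. Tpi1 had a ratio of 1.69 in Ifng-led NK-like cells and 0.647 in Gzma-led NK-like cells. Pkm had 1.77 in the Ace-led cluster and 0.657 in Fcrl5-led B-like cells. Vegfa had 1.69 in macrophage- or monocyte-like cells and 0.528 in the Gpnmb-led cluster. Mif had 1.97 in plasmacytoid dendritic-like cells and 0.647 in the Gpnmb-led cluster. Higd1a had 1.82 in plasmacytoid dendritic-like cells and 0.460 in Fcrl5-led B-like cells. None of these differences between classes was tested, since each class has 1 library per genotype. Without the cell of each library with the most member UMIs, Tpi1 kept both calls at 1.66 and 0.648. In the other 4 at least 1 class of the pair came under 1.5-fold: Pkm moved to 1.43 and 0.708, Vegfa to 1.39 in the macrophage- or monocyte-like class, Mif to 1.37 and 0.691, and Higd1a to just under 1.5 in plasmacytoid dendritic-like cells.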

How the results depend on the processing

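No paired analysis was possible because each genotype has 1 library. The alternatives were run for 8 classes: B-like, follicular-like, Fcrl5-led, NK-like as a whole, gamma delta T17-like, macrophage- or monocyte-like, Gpnmb-led and plasmacytoid dendritic-like cells. They were not run for the single NK-like subsets, among them the Ifng-led one. Under the alternatives 200 of the summed ratios and counts of members stayed within the interval of the reported value or within 1.5 times its count and 77 moved. Counts below are given of the members tested, with the share of all genes passing in brackets. In these classes no sum whose interval left out 1 changed direction, but for these 7 sums 11 of 69 intervals under the alternatives held 1: 5 in cells of 2000 to 6000 UMIs, 4 after thinning, 1 without the barcode filter and 1 without the top cells. The cause was not tested. Sums whose interval held 1 were not counted in this way, and some of their intervals came to leave it out. Glycolysis in B-like cells did so without the top cells, at 1.07 (1.002 to 1.15). Both sums in macrophage- or monocyte-like cells did so in cells of 2000 to 6000 UMIs. Thinned to 1500 UMIs per cell, the glycolysis ratio was 0.837 in Fcrl5-led B-like, 0.988 in NK-like, 0.715 in gamma delta T17-like and 0.973 in plasmacytoid dendritic-like cells, and the hypoxia ratio 1.13 in B-like, 0.971 in Fcrl5-led, 0.930 in NK-like, 0.825 in Gpnmb-led and 1.13 in plasmacytoid dendritic-like cells. The count at that depth was 1 of 11 in B-like (13.1%), 1 of 2 in gamma delta T17-like (10.2%), 0 of 6 in follicular-like (10.4%), 0 of 6 in Fcrl5-led (19.9%), 0 of 15 in macrophage- or monocyte-like (12.7%) and 0 of 1 in plasmacytoid dendritic-like cells (11.2%). With each library's top cell left out, the glycolysis ratio was 0.865 in Fcrl5-led cells, and the hypoxia ratio 0.983 there, 0.865 in the Gpnmb-led cluster and 1.44 in plasmacytoid dendritic-like cells. The count was then 2 of 17 in B-like (12.2%), 2 of 11 in follicular-like (10.9%) and 2 of 8 in plasmacytoid dendritic-like cells (9.46%) and 4 of 29 in the Gpnmb-led cluster (27.0%). Without the member with the most UMIs, the hypoxia ratio was 0.846 in B-like, 0.688 in Fcrl5-led and 1.05 in NK-like cells. By the mean of each cell's CPM, the glycolysis ratio was 0.840 in the Gpnmb-led cluster and 0.974 in NK-like cells, and the hypoxia ratio 1.40 in plasmacytoid dendritic-like cells. The count by that mean was 0 of 11 in follicular-like (12.2%), 3 of 28 in NK-like (9.87%) and 2 of 10 in plasmacytoid dendritic-like cells (15.4%). At resolution 0.5, which merged the Gpnmb-led cells into the macrophage- or monocyte-like class, that class had 0.889 and 0.796. The count was 1 of 18 in B-like (11.9%), 2 of 11 in follicular-like (12.2%) and 4 of 26 in NK-like cells (5.66%). At 1.5 the count was 2 of 19 in B-like cells (12.5%) and the glycolysis ratio 0.945 in NK-like cells. Clustered with the members, the Gpnmb-led cluster had 0.873 and 0.899, NK-like cells 0.949 for glycolysis, and the count was 2 of 11 in follicular-like (11.7%) and 5 of 29 in macrophage- or monocyte-like cells (13.1%). Without the barcode filter the ratios were 0.935 and 0.990 in the Gpnmb-led cluster and 0.971 for glycolysis in NK-like cells. In cells of 2000 to 6000 UMIs, an alternative chosen after seeing the data, the ratios were 0.847 and 0.962 in Fcrl5-led, 0.950 and 0.871 in NK-like, 0.896 and 0.843 in macrophage- or monocyte-like and 0.983 and 0.934 in Gpnmb-led cells. The count in such cells was 2 of 8 in Fcrl5-led (22.9%), 1 of 15 in NK-like (9.49%) and 0 of 6 in gamma delta T17-like cells (9.53%). With at least 20 UMIs the count was 2 of 23 in B-like (19.4%) and 2 of 18 in follicular-like cells (23.0%). In NK-like cells it was then 2 of 30 (13.0%), and in gamma delta T17-like cells 5 of 16 (25.01%). Plasmacytoid dendritic-like cells had 8 of 17 (22.3%). With at least 200 UMIs the count was 2 of 6 in Fcrl5-led (13.5%) and 5 of 17 in Gpnmb-led cells (26.3%). It was 0 of 2 in follicular-like (6.07%) and 0 of 1 in gamma delta T17-like cells (3.59%). At that minimum it was 0 of 16 in macrophage- or monocyte-like (4.82%) and 0 of 1 in plasmacytoid dendritic-like cells (2.61%). At 2-fold it was 1 of 12 in Fcrl5-led (5.40%), 1 of 29 in macrophage- or monocyte-like (2.78%), 1 of 30 in Gpnmb-led (10.9%), 0 of 11 in follicular-like (2.66%), 0 of 10 in gamma delta T17-like (1.76%) and 0 of 10 in plasmacytoid dendritic-like cells (1.71%). Scaled to a median log2 ratio of 0, it was 2 of 11 in follicular-like (10.7%) and 2 of 12 in Fcrl5-led cells (17.5%). Among B-like cells with a heavy-chain contig the sums were 2398 and 1125 CPM in control and 2069 and 919 in knockout cells. Small classes and depth limit these data: members under 50 UMIs in a class have no comparison.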
